A study of Homo sapiens with 6 samples.

Results

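Perforin, granulysin, 5 granzymes, the death ligands FASLG and TNFSF10 and the death receptor FAS were followed in AGS cells, which derive from a human gastric adenocarcinoma, after an siRNA against C1GALT1. These 10 genes are among 22435 genes named on the array, and 14 of its 58201 gene probes were designed to their RefSeq transcripts. The genes were chosen by their function, with the difference between the 2 siRNA groups already in view, so their values in that comparison are given as a description and carry no test. C1GALT1 encodes the enzyme that extends the first sugar of GalNAc-type O-glycans. AGS cells grown in RPMI1640 with serum received either a nontargeting siRNA (si-Control, n = 3) or si-C1GALT1-3 (n = 3), and RNA was taken 48 h after transfection. Each sample was hybridized to 1 one-colour Agilent array. The groups compare 1 siRNA with 1 control in 1 cell line, and the labels do not say whether the replicates were separate cultures, so the spread between samples may be technical.

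Cytotoxic lymphocytes kill target cells along 2 routes. In the granule route, perforin opens pores in the target membrane, and granzymes, a family of serine proteases, enter and cleave proteins of the target, while granulysin damages membranes. In the ligand route, FAS ligand and TRAIL, the product of TNFSF10, bind death receptors of the TNF receptor family, whose adaptors recruit caspases. TRAIL and FAS are also made by epithelial cells, and TNFSF10 is a known interferon-induced gene. The mRNAs of perforin and the granzymes are best known from T cells and natural killer cells.

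All values below are processed fluorescence signals on a log2 scale after quantile normalization over the 6 arrays. Levels of different probes cannot be compared on this scale, only the same probe between arrays. Between 66.2% and 72.7% of gene spots on an array were well above background, and none was saturated. On si-Control replicate 2 a rectangle of low signal, with 9712 gene spots, was set to missing, and 0 of the 14 probes lay in it. Arrays with the same replicate number shared a slide, with si-Control always in column 1 and si-C1GALT1-3 in column 2, so position and treatment cannot be told apart. The C1GALT1 probe gave 12.22, 13.03 and 12.62 in si-Control and 11.76, 11.98 and 11.13 in si-C1GALT1-3. It was lower on all 3 treated arrays, by -1.0 (SE 0.31) on the log2 scale. It did not reach the threshold of unadjusted p under 0.01 (limma, unadjusted p = 0.0193, adjusted p = 0.265).

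PRF1 and TNFSF10 were the 2 genes of the 10 that were at least 2-fold apart with no overlap between groups, and both were higher in si-C1GALT1-3. Over all genes, 4.33% were at least 2-fold higher without overlap and 2.9% were at least 2-fold lower. Since the members were picked with these values known, nothing is read from that comparison. FASLG, GZMH and GZMM were lower on every si-C1GALT1-3 array than on any si-Control array, by less than 2-fold, beside 13.5% of all genes lower without overlap at any size and 17.3% higher. The groups overlapped for GZMB, GZMK, GNLY, all 3 FAS probes and 1 of 3 TNFSF10 probes. The GZMA probe stayed at background on all 6 arrays.

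**Figure D1:**
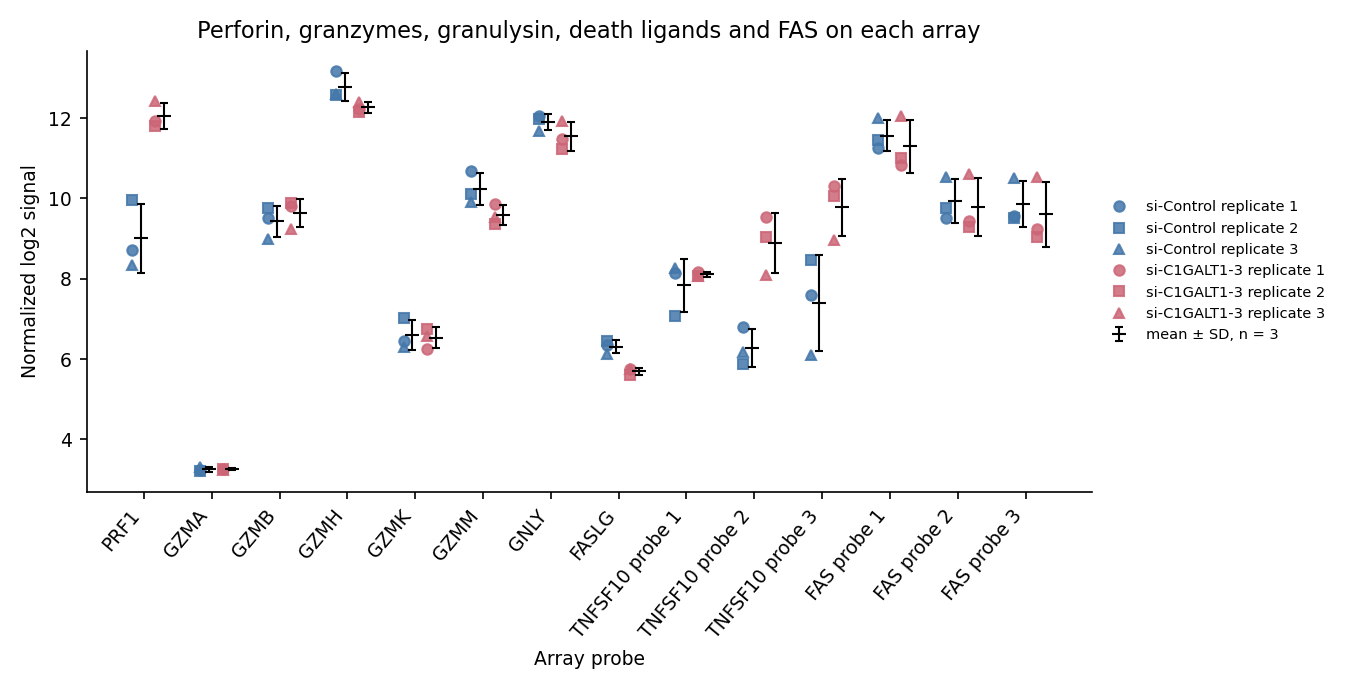
Normalized log2 signal (vertical axis) of each of the 14 probes (horizontal axis) on the 3 si-Control arrays (blue) and the 3 si-C1GALT1-3 arrays (red), with the mean and SD of each group in black. PRF1 and TNFSF10 probes 2 and 3 have group means that differ by more than 2 on this scale, GZMA lies near 3.25 in both groups, and levels of different probes are not comparable.

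PRF1, the pore former, was the member with the largest difference. In replicate order, its probe gave 8.72, 9.96 and 8.33 in si-Control, against 11.93, 11.81 and 12.43 in si-C1GALT1-3. The lowest treated array lay 1.85 above the highest control array. The group means were 9.01 ± 0.85 (SD, n = 3) and 12.06 ± 0.33 (SD, n = 3), a log2 difference of 3.05 (SE 0.46), or 8.30-fold. The 3 control arrays spread more widely than the treated ones, and si-Control replicate 2 was the highest of them. The difference was 3.21, 1.85 and 4.10 within slides 1, 2 and 3, so the size varied between slides while the direction was the same on each.

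Before normalization the PRF1 spot read 543, 944 and 225 in si-Control, against 4540, 4110 and 4720 in si-C1GALT1-3. The local background beside that spot was 32 to 51 on all 6 arrays. The probe was therefore well above background in both groups, and the control arrays did not sit at the detection limit. Leaving out si-Control replicate 2 gave a difference of 3.53, the largest of all settings run, and leaving out si-Control replicate 3 gave 2.72, the smallest. The spot lay 83 rows and 23 columns outside the masked rectangle.

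The RefSeq sequence upstream of PRF1 is shown because this gene differed most, together with those of TNFSF10 and FASLG, the ligands that moved apart. Each is the 250 bases before the annotated start, 5′ to 3′ on the gene's strand, in GRCh38.p14. PRF1 lies on the minus strand, chr10:70602742-70602991. TNFSF10 lies on the minus strand, chr3:172523431-172523680, and FASLG on the plus strand, chr1:172658853-172659102. Capitals mark matches on either strand to GAAANNGAAA (an interferon element bound by IRF factors), TTCNNNGAA (a STAT element), AGGAAGT (an ETS core), GGGCGG (a GC box) and TGTGGT (a RUNX core).
PRF1: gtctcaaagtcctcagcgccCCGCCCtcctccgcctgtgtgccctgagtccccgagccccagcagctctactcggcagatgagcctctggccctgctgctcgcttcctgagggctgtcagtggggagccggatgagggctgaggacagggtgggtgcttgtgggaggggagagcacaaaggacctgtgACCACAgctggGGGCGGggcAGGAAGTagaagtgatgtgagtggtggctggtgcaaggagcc
TNFSF10: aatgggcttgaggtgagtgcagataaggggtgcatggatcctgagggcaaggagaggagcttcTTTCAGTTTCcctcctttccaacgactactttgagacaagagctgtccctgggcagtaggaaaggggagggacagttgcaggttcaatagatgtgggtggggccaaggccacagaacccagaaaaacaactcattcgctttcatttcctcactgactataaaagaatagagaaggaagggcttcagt
FASLG: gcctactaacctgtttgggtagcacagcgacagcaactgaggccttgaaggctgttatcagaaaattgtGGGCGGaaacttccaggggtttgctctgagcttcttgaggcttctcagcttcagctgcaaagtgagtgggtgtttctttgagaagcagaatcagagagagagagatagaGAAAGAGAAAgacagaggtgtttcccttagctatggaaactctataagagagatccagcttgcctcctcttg

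The PRF1 window held 1 ETS match at -42 to -36 from the start, 1 RUNX match at -62 to -57 and 2 GC boxes, at -230 to -225 and -51 to -46. It held no match to the IRF or STAT letters. TNFSF10 held 1 match, to the IRF letters on the opposite strand at -187 to -178. FASLG also held 1 IRF match, at -72 to -63, beside 1 GC box. Any part of these matches in the array values was not tested. No 2 of these matches overlapped. Of the 35116 upstream windows in the table, 3.02% held an IRF match, 6.57% a STAT match, 7.01% an ETS match, 42.6% a GC box and 11.0% a RUNX match. A match is a stretch of letters and not a shown binding site. RefSeq windows were found for 8 of the 10 genes, and the other upstream windows held RUNX matches in GZMA, GZMB and GNLY, GC boxes in FAS and none of the 5 motifs in GZMH.

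The granzymes did not follow PRF1. GZMB, which cleaves after aspartate and activates caspases, gave 9.51, 9.77 and 9.0 in si-Control and 9.80, 9.88 and 9.25 in si-C1GALT1-3. The treated value was higher on each slide, but the groups overlapped, and the difference was 0.21 (SE 0.28). GZMA, a tryptase-like granzyme, read 8.37 to 12.6 before normalization on all 6 arrays and never stood well above background, so no fold is given for it. GZMK, a granzyme with a related specificity, gave 6.46, 7.02 and 6.31 in si-Control and 6.24, 6.76 and 6.58 in si-C1GALT1-3. Its groups overlapped, with a difference of -0.07 (SE 0.25) and both signs among the slides.

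GZMH and GZMM, 2 granzymes best known from natural killer cells, were lower in si-C1GALT1-3 without overlap. GZMH gave 13.18, 12.58 and 12.59 in si-Control and 12.23, 12.16 and 12.41 in si-C1GALT1-3. The gap between the groups was 0.16, and the difference of -0.52 (SE 0.21) was -0.95 on slide 1 and -0.17 on slide 3. GZMM gave 10.69, 10.10 and 9.91 in si-Control and 9.85, 9.37 and 9.53 in si-C1GALT1-3. Its groups were only 0.06 apart, and the difference was -0.65 (SE 0.26). For both, si-Control replicate 1 was the highest array, and without it the differences were -0.32 and -0.42.

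GNLY encodes granulysin, a membrane-disrupting granule protein. Its probe gave 12.05, 11.98 and 11.69 in si-Control and 11.47, 11.24 and 11.94 in si-C1GALT1-3. The treated array was lower on slides 1 and 2 and higher on slide 3, so the groups overlapped, with a difference of -0.36 (SE 0.22).

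**Figure D2:**
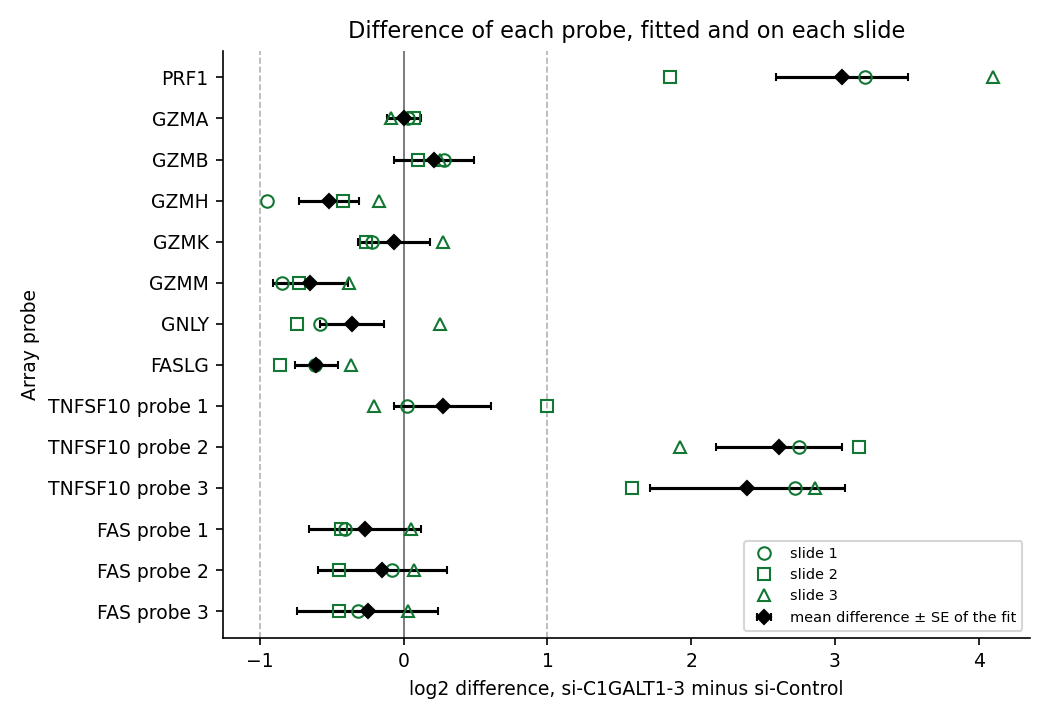
Log2 difference of si-C1GALT1-3 minus si-Control (horizontal axis) for each probe (vertical axis), as the fitted mean with its standard error (black) and on each slide (green), with dashed lines at 2-fold. PRF1 and TNFSF10 probes 2 and 3 lie beyond 2-fold on all 3 slides, and the granzyme, granulysin, FASLG and FAS probes lie within 2-fold on all 3 slides.

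The 2 death ligands differed in direction. TNFSF10 had 3 probes. Probe 2, designed to NM_003810, gave 6.80, 5.88 and 6.17 in si-Control and 9.55, 9.05 and 8.09 in si-C1GALT1-3. Every treated array lay above every control array, with a gap of 1.29, and the difference was 2.61 (SE 0.44), or 6.11-fold. Probe 3, also designed to NM_003810, gave 7.59, 8.47 and 6.10 in si-Control and 10.31, 10.06 and 8.96 in si-C1GALT1-3. These groups were 0.50 apart, and the difference was 2.39 (SE 0.68), or 5.24-fold. Within slides 1, 2 and 3 the difference was 2.75, 3.17 and 1.92 for probe 2, and 2.72, 1.59 and 2.86 for probe 3. Both probes had their lowest treated value on slide 3, where PRF1 had its highest.

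Probe 1 of TNFSF10 was designed to NM_001190943, another transcript of the gene, and did not show the difference. It gave 8.15, 7.08 and 8.28 in si-Control and 8.17, 8.08 and 8.07 in si-C1GALT1-3. Apart from the lower value of si-Control replicate 2, its arrays lay within 8.07 to 8.28, and the difference was 0.27 (SE 0.34), or -0.11 without that array. The 3 probes were all well above background on all 6 arrays, but some si-Control signals were low. Before normalization probe 2 read 149, 60.5 and 48.8 in si-Control, and probe 3 read 253, 349 and 46.5. The lowest signal well above background on those arrays was 57.3, 43.4 and 33.6. With normexp on the median spot signals, in place of the processed signals, the differences of probes 2 and 3 were 1.93 and 1.78. Probe 2 lay 6 columns from the edge of the masked rectangle, the closest of the members. Without si-Control replicate 2 its difference was 2.41 and that of probe 3 was 2.93. Without si-Control replicate 3, where probe 3 read 46.5, the differences were 2.55 and 1.75, the latter the smallest of all settings for probe 3.

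**Figure D3:**
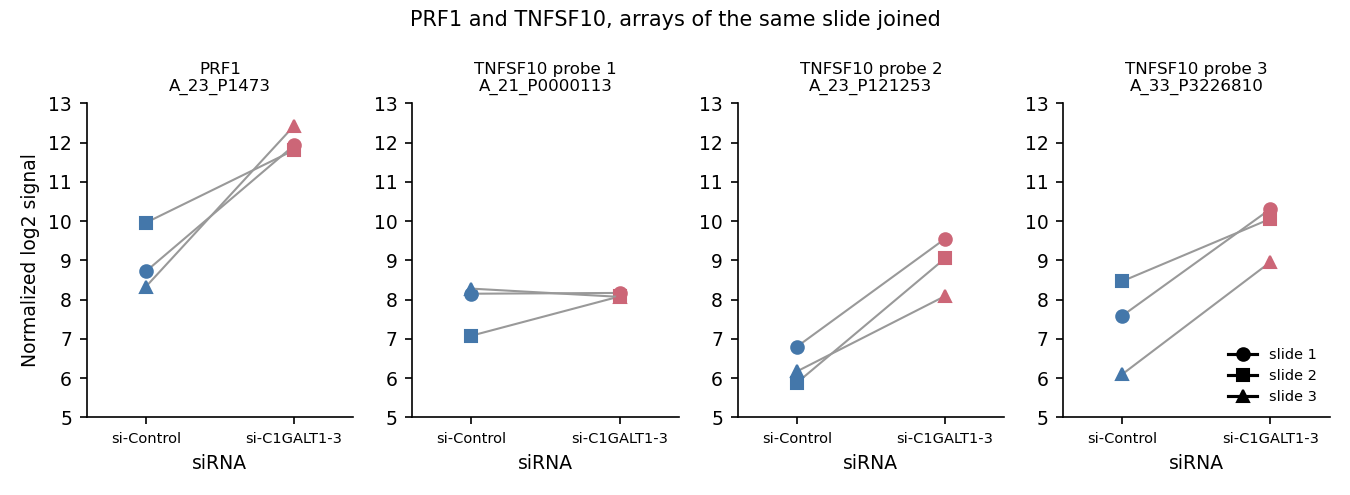
Normalized log2 signal (vertical axis) of PRF1 and of the 3 TNFSF10 probes under each siRNA (horizontal axis), with lines joining the 2 arrays of a slide. All lines go up for PRF1 and for TNFSF10 probes 2 and 3, while for probe 1 only slide 2 shows a clear step.

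FASLG, the ligand of FAS, gave 6.36, 6.45 and 6.12 in si-Control and 5.74, 5.59 and 5.75 in si-C1GALT1-3. Its groups were 0.37 apart and the difference was -0.61 (SE 0.15). The signal was low, at 47.0 to 111 before normalization in si-Control and 41.6 to 63.8 in si-C1GALT1-3, beside a local background of 35 to 54. It was well above background on 3 si-Control and 2 si-C1GALT1-3 arrays. With normexp on the median spot signals, in place of the processed signals, the difference was -0.29.

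FAS, the receptor of FASLG, did not differ beyond the spread between arrays on any of its 3 probes. Its first probe gave 11.25, 11.45 and 12.00 in si-Control and 10.84, 11.01 and 12.05 in si-C1GALT1-3, a difference of -0.27 (SE 0.39). The other probes differed by -0.15 (SE 0.45) and -0.25 (SE 0.49). On all 3 probes replicate 3 was the highest array of both groups, so the larger contrast for FAS was between slides and not between siRNAs.

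The genes around these members were tested with limma over 58195 probes, where a gene passed at p under 0.01 and at least 2-fold. In all, 1538 probes passed, 961 higher and 577 lower, and 49 had an adjusted p under 0.05, of which none belonged to the lists below. Among genes taken at their brightest probe, 2.08% rose, 1.33% fell, and 16.6% had an unadjusted p under 0.05. Of the 16 other death ligands and death receptors, 1 rose and none fell, and their median log2 fold change was 0.20 beside 0.02 for all genes. The gene that rose was TNFRSF25, which encodes death receptor 3. It gave 10.83 and 10.68 in si-Control, with replicate 2 missing in the masked rectangle, and 12.25, 12.40 and 11.53 in si-C1GALT1-3, a log2 fold change of 1.31 (SE 0.31, limma, adjusted p = 0.212). With the slide as a block its unadjusted p was 0.0245, which does not pass. Its other probe gave 1.57 (SE 0.48) and did not pass either.

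The groups overlapped for each detected receptor of TRAIL. TNFRSF10A, which signals death, gave 11.27 to 11.59 in si-Control and 11.44 to 12.07 in si-C1GALT1-3. TNFRSF10B, the second signalling receptor, gave 12.77 to 12.97 and 12.88 to 13.06. Of the decoy receptors that bind TRAIL, TNFRSF10D differed by 0.20 (SE 0.25) and TNFRSF11B by -0.11 (SE 0.27), and TNFRSF10C stayed at background wherever it was measured. TNFRSF1A, the main receptor of TNF, gave 12.41, 12.18 and 11.93 against 11.03, 11.01 and 11.61. Its difference of -0.96 (SE 0.23, limma, adjusted p = 0.188) stopped just short of 2-fold. It passed as lower with the rectangle kept (-1.05), with normexp (-1.04), with the series table (-1.03), without si-Control replicate 3 (-1.08) and without si-C1GALT1-3 replicate 3 (-1.15). With the rectangle kept, with the series table and without si-Control replicate 3 it was the one gene of the list that passed, and TNFRSF25 did not.

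Of the 20 genes of death receptor signalling reported here, all detected, none passed in limma or by the methods' t-test, and the median was 0.13. An unadjusted p under 0.05 was found for 2 of the 20, beside 16.6% of all genes, so the count is no higher than the background. The initiator caspase CASP8 differed by 0.53 (SE 0.25) and the effector caspase CASP6 by 0.37 (SE 0.19). CFLAR, which blocks CASP8 at the receptor, differed by -0.13 (SE 0.23), and the adaptor FADD by 0.17 (SE 0.18). The 2 genes under 0.05 were BIRC3 and TRADD. BIRC3, an inhibitor of apoptosis, was lower by -0.79 (SE 0.13, adjusted p = 0.110), and the adaptor TRADD was higher by 0.61 (SE 0.14, adjusted p = 0.165), both by less than 2-fold.

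Of the 27 genes of granule processing, secretion and granzyme targets, 1 rose and none fell, with a median of 0.13. The gene that rose was CTSH, cathepsin H, a protease that can remove the propeptide of granzyme B. It gave 13.33, 13.68 and 13.55 in si-Control and 14.67, 14.75 and 14.23 in si-C1GALT1-3, a log2 fold change of 1.03 (SE 0.20, limma, adjusted p = 0.137). It stood close to the 2-fold line and did not pass without si-Control replicate 1 (0.94), without si-C1GALT1-3 replicate 1 (0.97) or without si-C1GALT1-3 replicate 2 (0.93). The study names CTSH, PRF1, IRF1, STAT2 and PTPRC in a list it drew from these same samples, which makes that list no independent evidence. The study also measured selected genes by quantitative RT-PCR in independent experiments and reports that these bore out the array differences. Its primers include a pair for PRF1. Those measurements were not compared with the arrays here. CTSC, the main activator of granzymes, differed by 0.15 (SE 0.25), and SERPINB9, the inhibitor of granzyme B, stayed at background wherever it was measured.

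None of the 19 transcription factors reported here passed in limma or by the methods' t-test, and the list had a median of 0.13. An unadjusted p under 0.05 was found for 3, STAT2, IRF1 and IRF9, which is close to the 16.6% of all genes and is no result about the list. IRF1 gave 9.52, 10.02 and 9.31 against 10.68, 10.46 and 10.31, a difference of 0.87 (SE 0.23, adjusted p = 0.213). STAT2 and IRF9 differed by 0.86 (SE 0.30) and 0.77 (SE 0.24). The groups of all 3 did not overlap, and none reached 2-fold. Without si-Control replicate 2, STAT2 (1.11) and IRF1 (1.07) passed. TBX21 and RUNX3, factors of cytotoxic lymphocytes, differed by -0.06 and 0.13. In the same list PRDM1 differed by 1.0 (SE 0.56), with overlapping groups, and si-Control replicate 2 was its lowest array. EOMES stood well above background on 0 si-Control and 1 si-C1GALT1-3 arrays, so no fold is given for it.

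**Figure D4:**
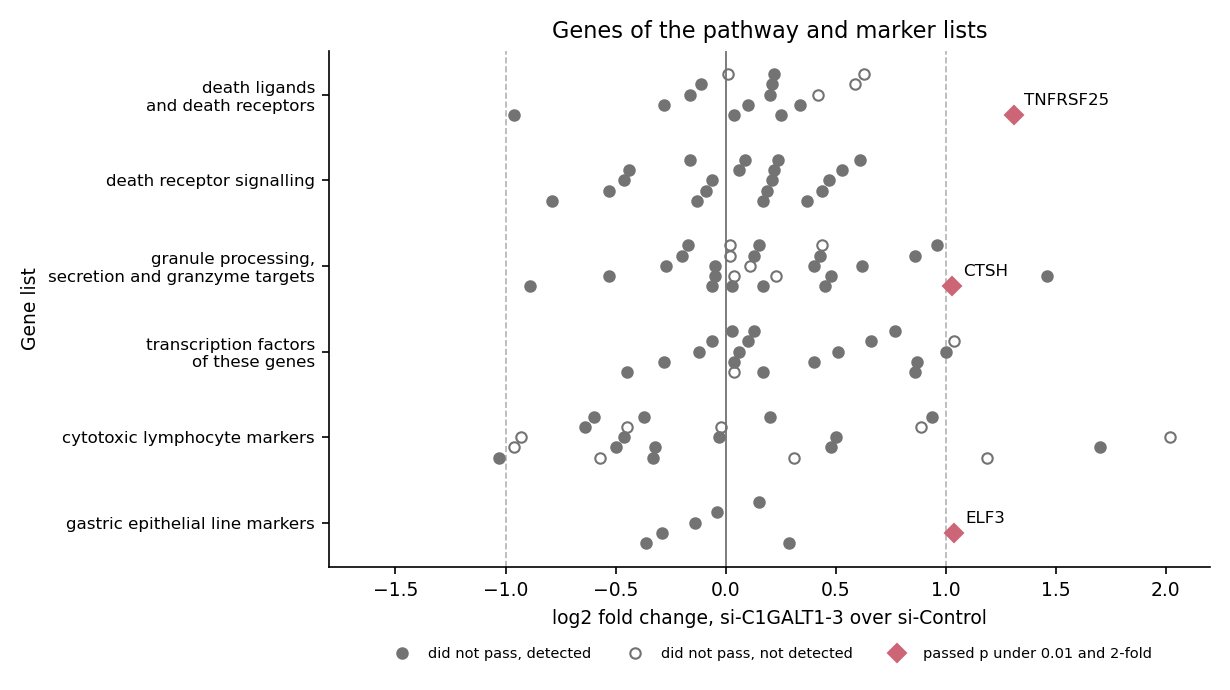
Log2 fold change of si-C1GALT1-3 over si-Control (horizontal axis) for each gene of the pathway and marker lists (vertical axis). Filled points were well above background on all measured arrays of at least 1 group, red diamonds passed p under 0.01 and 2-fold, and dashed lines mark 2-fold. TNFRSF25, CTSH and ELF3 rose, and the other genes shown did not pass.

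The 3 genes UNC13D, ELF3 and IRF1 had the profile most like PRF1 of all detected genes in these lists. UNC13D, which primes granules for fusion, had a Pearson r of 0.956 over 6 arrays, with 13.15, 13.10 and 12.95 in si-Control and 13.57, 13.45 and 13.62 in si-C1GALT1-3. ELF3, an epithelial ETS factor, had an r of 0.947 over its 5 arrays, and IRF1 an r of 0.942 over 6. All these arrays fall into 2 siRNA groups, so any gene that differs between the groups correlates with PRF1. The differences themselves were much smaller than that of PRF1, at 0.48 (SE 0.13) for UNC13D and 1.04 (SE 0.18) for ELF3.

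The labelled cell type was set against 7 markers of gastric epithelial lines and 23 of cytotoxic lymphocytes. All 7 epithelial markers, among them EPCAM, KRT8 and KRT18, were well above background on every array measured. ELF3 rose (limma, adjusted p = 0.141), which did not pass with the slide as a block (unadjusted p = 0.0176), and the other 6 did not pass. Of the lymphocyte markers, 13 were well above background on every array measured and 4, CD247, KLRD1, KLRB1 and KLRG1, on none. None of the 23 passed in limma or by the methods' t-test. An unadjusted p under 0.05 was found for 4, close to the 16.6% of all genes, with CD8B and NCR1 lower and ZAP70 and KLRC1 higher. Their median was -0.32. With the slide as a block, KLRC1 passed (1.65, unadjusted p = 0.00659). Its other probe stayed at background on all 6 arrays, so no fold is given for it. The summed normalized signal of the 18 markers measured on all 6 arrays was 23740 to 42420 in si-Control and 29090 to 39460 in si-C1GALT1-3, so the ranges overlapped. PTPRC and CD7 made up 81.9% to 89.9% of that sum, which therefore says little about the other 16 markers. Their sum was 4235 to 5172 in si-Control and 3999 to 5268 in si-C1GALT1-3.

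PTPRC, which encodes the leukocyte antigen CD45, had 5 probes that disagreed. Its brightest probe gave 14.34, 13.94 and 13.63 in si-Control and 13.73, 13.56 and 13.63 in si-C1GALT1-3. A dimmer probe gave 6.81, 6.68 and 6.09 against 9.12, 8.37 and 7.78, a log2 fold change of 1.90 (SE 0.39), and passed. Another also passed (limma, adjusted p = 0.101) and stood well above background on 0 si-Control and 2 si-C1GALT1-3 arrays. Its si-C1GALT1-3 values were 6.39, 5.27 and 5.03. The lowest signal well above background on the si-Control arrays was 5.37, 5.38 and 5.65. Only si-C1GALT1-3 replicate 1 lay above these, so no fold is given. The part of these markers in the PRF1 and TNFSF10 values was not tested. In these bulk samples more RNA per cell and a larger share of cells making it cannot be told apart.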

How the data were processed

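RNA of 6 AGS samples was hybridized to one-colour Agilent arrays. The authors deposited Feature Extraction (version 10.5.1.1) files with intensity per spot, corrected for background by that software and not normalized between arrays, and a series table of background-subtracted intensity. From the deposited processed intensity, log2 values were taken. Control spots were left out, spots marked as non-uniform or population outliers (100 to 424 per array) and the masked rectangle (rows 113 to 288, columns 59 to 115) were set to missing, and arrays were quantile normalized. Spots of a probe were averaged, and limma (version 3.58.1, lmFit and eBayes, R version 4.3.3) compared the groups, with Benjamini-Hochberg adjustment over all probes. Genes were named through RefSeq accessions (31100 of 58201 probes had a symbol), and the brightest probe stood for a list gene. The number of arrays limits the precision.

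Same-numbered arrays share a slide, and their deviations correlated by 0.198, 0.215 and 0.329, so the slide was run as a block. Members, lists and motifs were chosen with earlier results of these data known. Some genes of 2 lists are not reported here, and the list counts leave them out. The genes named are all members, C1GALT1, list genes that passed, and the 3 most like PRF1. Others were chosen after their values were seen. The alternatives were the rectangle kept, 75th percentile or no normalization, dim probes left out, the block, a trend and robust prior, the methods' t-test, marked spots kept, normexp (offset 50) on median signals, the series table with a floor of 10, the median over a gene's probes, and leaving out each array. The t-test was Student's, which the study's methods name for comparing groups in general, while for the arrays they name limma.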

Additional observations from a re-analysis of the deposited data

How the results depend on the processing

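The count of 2 members at least 2-fold apart without overlap, both higher, was 2 under every alternative run. The block and the setting without dim probes could not change this count. Leaving out an array cannot make separate groups overlap. Of 195 values of member probes under alternatives, 190 stayed within 1 SD of the reported value and 5 moved further. The 5 were FASLG with the rectangle kept (-0.82) and with normexp (-0.29), GZMA with the 75th percentile (-0.17) and normexp (-0.18), and TNFSF10 probe 2 with normexp (1.93). Leaving out dim probes gave no value for GZMA and, like the block, could not change the difference of any other member probe. Keeping marked spots gave the same rounded difference for every member probe, so these settings add little to the count. PRF1 and the 2 TNFSF10 probes that differed stayed higher in si-C1GALT1-3 throughout. The small differences of GZMA, GZMK, TNFSF10 probe 1 and 2 of the FAS probes took both signs.

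Against 1538 probes that passed, the methods' t-test gave 896 and normexp 920, and the slide as a replicate block 1604. The count was 1135 to 1818 when 1 array was left out. The share of them higher, 62.5%, was 40.2% with the rectangle kept, 72.6% without normalization, and 52.1% without si-Control replicate 1. The 75th percentile moved the median of all probes by -0.11.

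The list counts were small and moved with the setting, for reasons that were not tested. Of the granule genes, 0 passed with the rectangle kept, the 75th percentile or no normalization. Of the epithelial markers, 0 passed with the 75th percentile, no normalization, the replicate block or normexp. Of the death ligands and receptors, 0 passed without normalization, with the block or with the methods' t-test, and 2 with normexp, and the gene that passed was TNFRSF1A, lower, in place of TNFRSF25 with the rectangle kept and the series table. In death receptor signalling 0 passed under every alternative. Of the lymphocyte markers, 1 passed with the block, with normexp and with the median taken over each gene's probes. With 1 array left out the counts were 0 to 2 for death ligands and receptors, granule genes, transcription factors and lymphocyte markers, 0 to 1 for epithelial markers and 0 for death receptor signalling. TNFRSF25 passed with normexp (1.25) and not with the rectangle kept (2.32, unadjusted p = 0.0424).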
